A study of Homo sapiens and Mus musculus with 74 samples.

Results

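Immediate early genes were followed in the brains and kidneys of mice that lack RPL41, a small ribosomal protein, and of their wild-type counterparts. The 10 genes were Fos, Fosb, Junb, Egr1, Egr2, Arc, Npas4, Nr4a1, Ier2 and Dusp1. They were found by gene symbol in the GENCODE M21 annotation, and for each the isoform encoding the longest protein was used, so that 10 of 22484 coding genes and 10 of 142604 listed transcripts are described here. The mice were male, 10 weeks old and of C57BL/6J origin. Rpl41-/- animals (KO) carried a deletion of the entire Rpl41 coding sequence, made by electroporating zygotes with a CRISPR-Cas9 ribonucleoprotein, and the controls were Rpl41+/+ (WT). The deletion was in the germline, so no promoter or cell type restricted it. Lysates of whole brain or kidney tissue gave RNA-seq libraries of poly(A) RNA and Ribo-seq libraries of ribosome-protected fragments (RPFs), and kidney also gave disome-seq libraries of fragments protected by stacked ribosomes. Each combination of tissue, assay and genotype had 3 libraries, 30 in all. The labels number the libraries 1 to 3, and the study calls its mouse Ribo-seq replicates biological, without tying a library to an animal.

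Immediate early genes are switched on within minutes of a stimulus without a need for newly made proteins, and their RNAs are short-lived. Growth factors and calcium reach their promoters through the MAP kinases and calcium-dependent kinases, which act on serum response factor (SRF) bound at the CArG box and on CREB bound at the cyclic AMP response element (CRE). In brain they are widely used as reporters of recent neuronal activity, and in other tissues they respond to growth factors and injury. Fos, Fosb and Junb encode subunits of the transcription factor AP-1, Egr1 and Egr2 zinc finger factors, Npas4 a neuronal activity-dependent factor and Nr4a1 an orphan nuclear receptor. Arc encodes a protein of the postsynapse that promotes removal of AMPA receptors, Ier2 a nuclear protein, and Dusp1 a phosphatase that turns MAP kinases off.

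The promoters of Fos, Fosb and Dusp1 are given here because they hold, between them, the SRF and CREB motifs, and because Dusp1 was the member called between genotypes in kidney ribosome footprints. Each sequence is 300 bases of GRCm38.p6, written 5′ to 3′ on the gene's own strand, with positions counted back from the first base of the transcript, which is preceded by position -1. Capitals mark CArG boxes, CREs and CRE cores, and a core on the opposite strand reads CGTCA. The stretch of Fos is chr12:85473545-85473844 on the plus strand, positions -345 to -46. That of Fosb is chr7:19310074-19310373 on the minus strand, positions -322 to -23. That of Dusp1 is chr17:26508520-26508819 on the minus strand, positions -300 to -1.
Fos: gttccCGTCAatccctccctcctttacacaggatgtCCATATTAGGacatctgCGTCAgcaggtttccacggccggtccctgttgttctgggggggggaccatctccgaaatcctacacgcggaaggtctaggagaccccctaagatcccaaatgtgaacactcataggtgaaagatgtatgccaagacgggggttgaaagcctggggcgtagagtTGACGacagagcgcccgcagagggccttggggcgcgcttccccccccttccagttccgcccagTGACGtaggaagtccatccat
Fosb: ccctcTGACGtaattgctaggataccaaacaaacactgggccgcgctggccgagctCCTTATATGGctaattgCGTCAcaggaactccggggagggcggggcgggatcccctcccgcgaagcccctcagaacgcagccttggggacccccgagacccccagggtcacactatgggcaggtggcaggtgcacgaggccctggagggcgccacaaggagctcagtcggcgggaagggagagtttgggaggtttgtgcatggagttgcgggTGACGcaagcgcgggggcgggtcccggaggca
Dusp1: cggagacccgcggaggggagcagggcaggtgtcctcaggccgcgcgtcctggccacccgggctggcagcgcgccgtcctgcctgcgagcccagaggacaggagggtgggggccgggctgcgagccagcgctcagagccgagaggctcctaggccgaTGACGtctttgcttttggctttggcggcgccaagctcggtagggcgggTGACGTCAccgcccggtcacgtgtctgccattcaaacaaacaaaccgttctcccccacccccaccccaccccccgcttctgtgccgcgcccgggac

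Within 500 bases upstream of the transcript start, on either strand, a CArG box was found in 3 of the 10 genes, against 2.64% of 22471 coding genes. Fos carried it at -309 to -300, Fosb at -266 to -257, and Egr2 carried a pair, at -375 to -366 and at -72 to -63. In Fos and in Fosb alike, 7 bases separated the CArG box from the next CRE core. The full CRE (TGACGTCA) was found in Ier2 at -45 to -38 and in Dusp1 at -96 to -89, against 2.27% of all promoters. The CRE core (TGACG), which every full CRE contains on both strands, was found in 8 of 10 members against 27.7% of all promoters, and Arc and Npas4 were the members without it. A TATA box (TATAAA) was found in Fos at -33 to -28 and in Junb at -30 to -25, against 24.0% of all promoters. A match is a description of letters in this window and no evidence of binding, and no match says nothing about elements farther away. Egr1 and Nr4a1 each have another coding isoform that starts farther downstream, and the bases upstream of that start were not searched. For Egr1 it had 8008 reads in WT brain RNA replicate 1, against 8014 for the isoform used. For Nr4a1 it had 3151 against 3153. Egr2 has coding isoforms that start on either side of the start used, and a downstream one had 326 reads against 336 in that library. Dusp1 has a coding isoform that starts farther upstream, with 1358 against 1504. Npas4 has a nonsense-mediated decay isoform that starts downstream, with 472 against 757. The windows of those starts were not searched either. The member counts therefore hold for the starts used, which may not be the main starts of these genes.

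**Figure D1:**
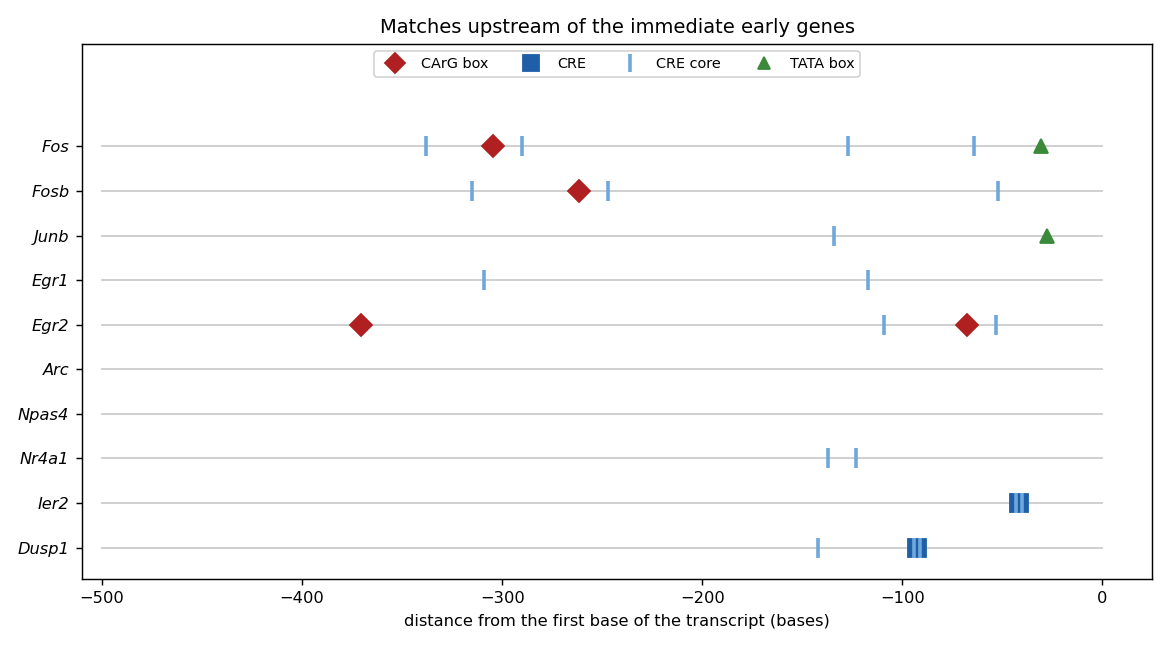
Matches to the CArG box, the CRE, the CRE core and the TATA box in the 500 bases upstream of the isoform used for each of the 10 immediate early genes, by distance in bases from the start of that isoform. Fos, Fosb and Egr2 hold CArG boxes, Ier2 and Dusp1 hold full CREs, and Arc and Npas4 hold none of the motifs in this window.

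RNA-seq libraries held 84433838 to 123745890 summed counts in brain and 44998381 to 55077048 in kidney. Ribo-seq libraries held 9498663 to 35881929 in brain and 11036643 to 42452425 in kidney, and the disome libraries of kidney 1187636 to 3018963. Rpl41 RNA in brain lay between 91.2 and 129 CPM (counts scaled to library size) in WT libraries and between 0.0531 and 0.153 in KO libraries, so the libraries matched their labels. The 5 neuronal markers (Rbfox3, Snap25, Syt1, Slc17a7 and Gad1) summed to 1342 to 1784 CPM in brain RNA and to 0.249 to 0.634 CPM in kidney RNA, where 2 or 3 of them were at 0. The 4 proximal tubule markers summed to 2757 to 3553 CPM in kidney RNA and to 3.10 to 4.64 CPM in brain RNA. Pancreatic enzyme transcripts reached 114 CPM in kidney Ribo-seq WT replicate 1 and 41.6 CPM in brain Ribo-seq WT replicate 1, and their part in any result was not tested. The blood markers summed to 700 to 2410 CPM in WT brain RNA, highest in replicate 2, and to 380 to 795 CPM in KO brain RNA, so the ranges overlapped.

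In WT animals most immediate early genes were far more abundant in brain than in kidney, and Dusp1 and Ier2 were not. Per kilobase of transcript, Egr1 RNA was highest in brain at 17.8 ± 2.93 CPM (SD, n = 3), followed by Arc at 15.8 ± 3.36, Nr4a1 at 11.2 ± 2.15, Junb at 8.73 ± 1.41, Dusp1 at 6.79 ± 1.33 and Fos at 5.37 ± 1.23. Ier2 at 2.58 ± 0.585 CPM per kilobase, Npas4 at 1.80 ± 0.455, Fosb at 1.77 ± 0.0539 and Egr2 at 0.955 ± 0.260 made up the lower end. The intervals of mean ± SD separated Fos from Ier2 and Fosb from Egr2, and those of all other neighbours in this order overlapped. In kidney the order was another: Dusp1 led at 10.1 ± 2.52 CPM per kilobase, ahead of Ier2 at 2.63 ± 0.988, Junb at 2.12 ± 0.563, Nr4a1 at 0.748 ± 0.272 and Egr1 at 0.615 ± 0.273. The postsynaptic gene Arc stood at 0.227 ± 0.00907 and Fos at 0.106 ± 0.0717 CPM per kilobase in kidney. Those intervals separated Dusp1 from Ier2, Junb from Nr4a1, Egr1 from Arc and Arc from Fos. Egr2, Fosb and Npas4 were at the edge of detection in kidney, with at most 8, 13 and 4 reads in a WT library. Counts of 3 or fewer were treated as the floor.

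In the test of WT brain against WT kidney, 8 of 10 members were higher in brain RNA and 1 was lower, against 35.8% higher and 28.3% lower (64.1% in all) of the transcripts tested. Npas4, the gene with the largest difference among the members, had 757, 483 and 601 reads in brain and 2, 4 and 1 in kidney, which gave a fitted log2 difference of 6.81 ± 0.43 (SE). That value rests on 7 kidney reads in all, and was 7.43 without kidney WT replicate 2. Arc differed by 5.82 ± 0.23, Fosb by 5.68 ± 0.55, Fos by 5.36 ± 0.40, Egr1 by 4.55 ± 0.36, Egr2 by 4.36 ± 0.43 and Nr4a1 by 3.60 ± 0.29 on the log2 scale. Kidney WT replicate 1 held 13 of the 16 kidney reads of Fosb, and without it Fosb differed by 7.47, more than Npas4 (6.72), and Fos by 6.06. Junb, at 18.7, 13.8 and 14.8 CPM in brain and 3.22, 5.02 and 3.29 CPM in kidney, differed by 1.74 ± 0.23 (edgeR's quasi-likelihood test, adjusted p = 9.04e-05). The phosphatase gene Dusp1 went the other way, at 16.6, 12.1 and 11.9 CPM in brain and 16.4, 25.8 and 18.1 in kidney, a log2 difference of -0.87 ± 0.22 (adjusted p = 0.00628). The CPM were scaled within each tissue and the test scaled both tissues together. Overlap between the tissues can therefore not be read from these CPM for any member. Ier2, at 4.96, 3.48 and 3.36 CPM in brain and 3.22, 5.74 and 3.06 in kidney, did not pass the test, with a log2 difference of -0.33 ± 0.30 (adjusted p = 0.362). The median log2 difference was 4.46 over the members and -0.10 over all genes tested. In such bulk samples, fewer cells that express a gene and less RNA per cell cannot be told apart.

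RPFs gave the same 8 genes as higher in brain, against 35.8% of transcripts higher and 70.9% called in either direction. Arc differed by 6.05 ± 0.26 on the log2 scale, Fos by 5.24 ± 0.24, Egr1 by 4.56 ± 0.25, Egr2 by 3.46 ± 0.35, Nr4a1 by 3.35 ± 0.27, Npas4 by 2.89 ± 0.28, Fosb by 2.82 ± 0.22 and Junb by 2.39 ± 0.18. Ier2 and Dusp1 did not pass, at 0.50 ± 0.25 (adjusted p = 0.0962) and 0.13 ± 0.19 (adjusted p = 0.572). Per kilobase of coding sequence, brain RPFs were ordered Egr1 at 61.1 ± 11.9 CPM, Arc at 49.1 ± 12.6, Junb at 27.1 ± 6.24, Fos at 18.0 ± 3.63, Nr4a1 at 17.4 ± 5.28 and Dusp1 at 12.9 ± 3.72, with the other 4 between 3.88 (Npas4) and 5.32 (Ier2). The intervals of mean ± SD separated Arc from Junb and Dusp1 from Ier2 and no other neighbours. In kidney, Dusp1 again led at 11.1 ± 1.82 CPM per coding kilobase, followed by Junb at 4.80 ± 0.705 and Ier2 at 3.51 ± 0.981. Egr1 stood at 2.27 ± 0.964, Nr4a1 at 1.57 ± 0.653 and the other 5 between 0.338 (Egr2) and 0.688 (Fosb) CPM per coding kilobase, and the gaps below Dusp1 and below Nr4a1 exceeded the spread.

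**Figure D2:**
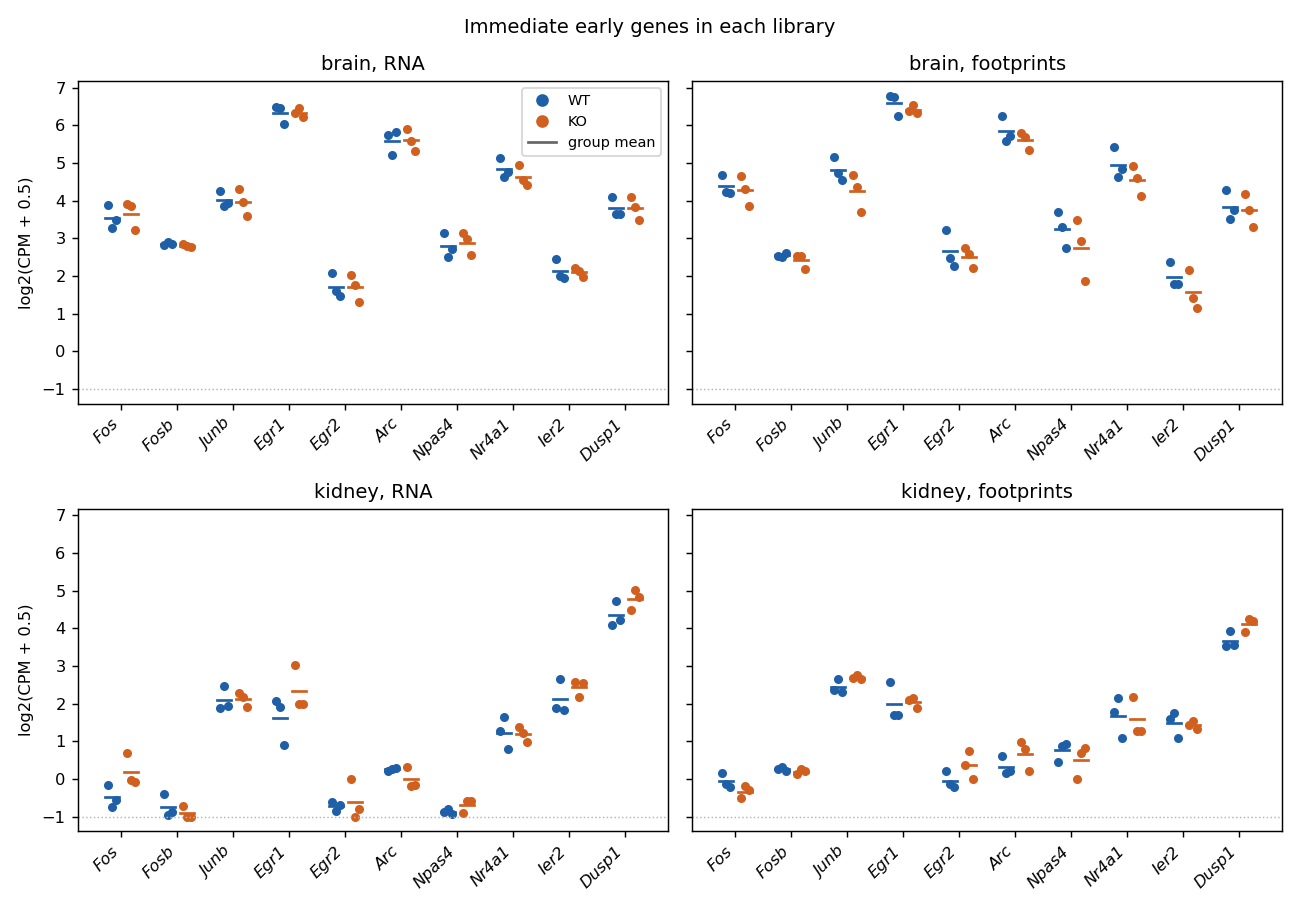
RNA and footprint (RPF) levels of the 10 genes in each WT (blue) and KO (orange) library of brain and kidney, as log2(CPM + 0.5), with bars at the group means; the dotted line is the value of 0 reads. Egr1 and Arc are the highest in brain and Dusp1 the highest in kidney, where Fosb and Npas4 RNA lie near the dotted line.

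Translation efficiency (TE), the RPF level relative to RNA, was lower in WT brain than in WT kidney for Npas4 and Fosb, 2 of 10 members, against 13.9% of transcripts lower and 19.9% called in either direction. Npas4 had 24, 20 and 19 kidney RPFs against its 2, 4 and 1 RNA reads, and 262, 87 and 138 brain RPFs. Its TE difference was -4.08 ± 0.59 on the log2 scale (adjusted p = 0.000106). Fosb had 19, 11 and 9 kidney RPFs against 13, 1 and 2 RNA reads, and its TE difference was -3.01 ± 0.61 (adjusted p = 0.00233), or -4.77 without kidney RNA-seq WT replicate 1. Without kidney RNA-seq WT replicate 2, that of Npas4 was -4.67. Both values rest on kidney RNA counts at or close to the floor, while neuronal markers in kidney Ribo-seq summed to 0.413 to 1.02 CPM. Dusp1 had a TE difference of 0.81 ± 0.33, adjusted p = 0.0971. The same-numbered RNA-seq and Ribo-seq libraries of a WT tissue deviated together, and with those pairs as a block Dusp1 was 0.77 higher in brain, adjusted p = 0.0254. The other 7 members lay between -1.04 (Egr2) and 0.65 (Ier2). DESeq2's size factors moved the TE differences by a median of 0.24 over the 116 genes listed for this work, so that Egr1 went from -0.14 to 0.14, and they turned the split of all calls from 5791 higher and 13402 lower into 11068 and 11963.

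In brain, loss of Rpl41 left the RNA of the 10 genes without a call. Fos RNA stood at 14.2, 9.09 and 10.7 CPM in WT and 14.5, 13.9 and 8.72 in KO, Arc at 52.7, 36.6 and 55.7 against 59.4, 46.9 and 39.1, and Egr1 at 88.3, 86.7 and 64.8 against 79.3, 88.0 and 73.3. KO replicate 3 was the lowest KO library in each of these genes, and the groups overlapped for every member. The log2 fold changes of KO over WT ran from -0.21 ± 0.19 for Nr4a1 to 0.13 ± 0.23 for Fos, with SEs from 0.11 (Fosb) to 0.27 (Egr2). On the fold scale the 95% intervals were 0.761 to 1.57 for Fos, 0.728 to 1.38 for Arc, 0.790 to 1.27 for Egr1 and 0.804 to 1.15 for Fosb. The lowest adjusted p among members was 0.898 by edgeR's quasi-likelihood test, and 0 of 10 passed, against 0.0134% of transcripts. None had an unadjusted p under 0.05, against 3.46% of transcripts, and DESeq2 also called 0, against 23 of 89230 transcripts.

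Brain RPFs of all 10 members were estimated below WT, and none passed the test. Junb, an AP-1 subunit, had 35.1, 26.0 and 22.7 CPM in WT and 25.1, 19.9 and 12.4 in KO. KO replicate 1 lay inside the WT range and the other KO libraries lay below it, and the log2 fold change was -0.55 ± 0.22 (unadjusted p = 0.0257, adjusted p = 0.334). Nr4a1, the nuclear receptor, had 42.1, 24.0 and 28.0 CPM in WT and 29.9, 23.6 and 16.9 in KO, a change of -0.44 ± 0.21 with overlapping groups. Npas4 had 12.4, 9.40 and 6.19 CPM in WT and 10.6, 7.08 and 3.14 in KO, a change of -0.44 ± 0.33. Within each genotype, replicate 1 was the highest for these 3 genes. Ier2 stood at 4.70, 2.92 and 2.96 CPM in WT and 3.98, 2.15 and 1.73 in KO (-0.50 ± 0.29), and Arc at 75.5, 47.6 and 52.0 against 55.1, 51.4 and 39.9 (-0.27 ± 0.17). The other 5 lay between -0.23 (Egr2) and -0.10 (Fos). The median was -0.25 over the members and -0.03 over all genes, of which 45.5% were positive. Without WT replicate 1, 7 of 10 members were negative with a median of -0.12, and without KO replicate 3, 8 of 10 with a median of -0.12. No member had groups that did not overlap, against 8.7% of transcripts with KO below WT. Of the transcripts tested 0.0345% were called (1 higher and 27 lower; by DESeq2 263 higher and 96 lower), and 1 of 10 members (Junb) against 12.6% of transcripts had an unadjusted p under 0.05. DESeq2 called 0 members. Blood markers summed to 636 to 1841 CPM in WT and 346 to 443 CPM in KO brain RPFs, with every KO library below the WT range, and neuronal markers to 990 to 1224 and 966 to 1096 CPM. Their part in the members' values was not tested.

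**Figure D3:**
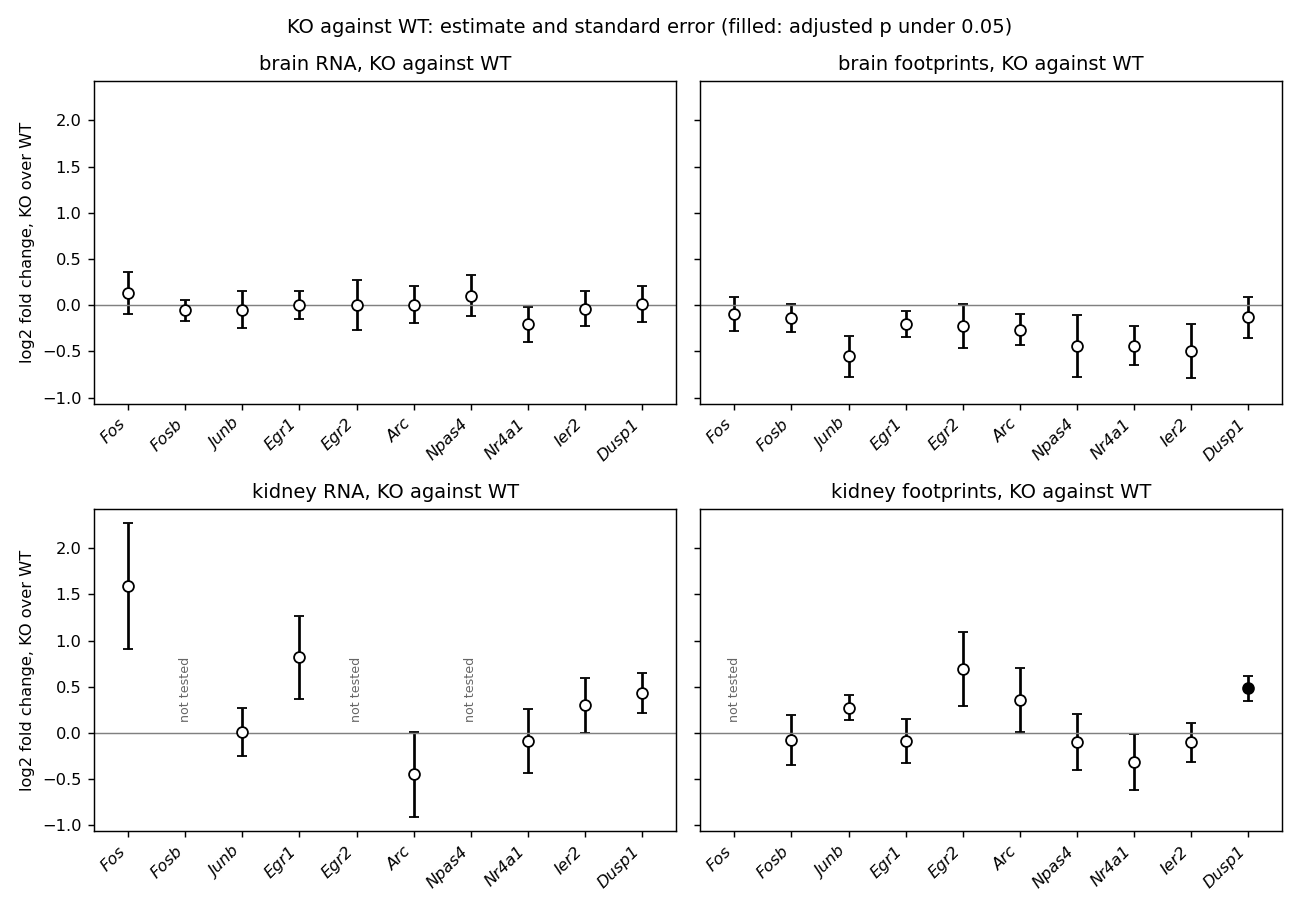
Log2 fold change of KO over WT for each of the 10 genes in RNA and footprints (RPFs) of brain and kidney, with bars of 1 standard error; the filled point passed the adjusted threshold of 0.05. Brain RNA lies around 0, the 10 brain footprint values lie between -0.55 and -0.10, and Dusp1 footprints in kidney are the only filled point.

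In kidney the AP-1 gene Fos had the largest RNA estimate, on few reads. It had 20, 5 and 9 reads in WT (0.390, 0.0954 and 0.184 CPM) and 62, 20 and 18 in KO (1.10, 0.474 and 0.439 CPM). The lowest KO library was above the highest WT library in CPM, and KO replicate 1 was the highest of all. Fos was 1 of 7 members tested whose groups did not overlap in that direction, against 10.1% of transcripts. Its fold change was 3.01 (95% interval 1.02 to 8.87), 1.59 ± 0.68 on the log2 scale, and it did not pass after adjustment (unadjusted p = 0.0468, adjusted p = 0.295). Without KO replicate 1 the Fos estimate was 1.03 (adjusted p = 0.365). Egr1 RNA stood at 3.67, 3.24 and 1.37 CPM in WT and 7.70, 3.43 and 3.44 in KO. KO replicate 1 was again the highest and the groups overlapped, with a change of 0.82 ± 0.45 (adjusted p = 0.343), and 0.32 without that library. Dusp1 RNA stood at 16.4, 25.8 and 18.1 CPM in WT and 21.8, 31.9 and 27.7 in KO, a change of 0.43 ± 0.22 (adjusted p = 0.319). WT replicate 2 lay within the KO range.

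The other kidney RNA estimates were 0.30 ± 0.30 for Ier2, 0.01 ± 0.26 for Junb, -0.09 ± 0.35 for Nr4a1 and -0.45 ± 0.46 for Arc. Fosb (13, 1 and 2 reads in WT, 6, 0 and 0 in KO), Egr2 (8, 3 and 6 in WT, 28, 0 and 3 in KO) and Npas4 (2, 4 and 1 in WT, 2, 7 and 7 in KO) fell under the filter on low counts. For Egr2 and Fosb the reads of the KO group came mostly or wholly from replicate 1. In total 0 of 7 members were called by edgeR's quasi-likelihood test, against 0.00992% of transcripts. By that test 1 of 7 (Fos) had an unadjusted p under 0.05, against 16.8% of transcripts. DESeq2 also called 0 members, against 540 of 52763 transcripts. The median was 0.30 over the 7 members and 0.11 over all genes. Podocyte markers summed to 93.0 to 112 CPM in WT and 59.1 to 71.1 CPM in KO kidney RNA, and leukocyte markers to 4.33 to 6.69 and 6.94 to 7.79 CPM. Their part in these values was not tested.

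Dusp1 was the member called in kidney RPFs. It had 301, 217 and 153 reads in WT, or 11.0, 14.6 and 11.2 CPM, and 145, 795 and 682 reads in KO, or 14.3, 18.5 and 17.6 CPM. KO replicate 1, at 14.3 CPM, lay just below WT replicate 2, and the other KO libraries lay above all of WT. The fold was 1.40 (95% interval 1.14 to 1.71), or 0.48 ± 0.13 on the log2 scale, with an adjusted p of 0.0450. The RNA estimate of Dusp1 in kidney was 0.43 ± 0.22. Its TE change there was 0.03 ± 0.29 (edgeR's quasi-likelihood test, unadjusted p = 0.909), so the call is one of footprint level and no TE change was called. The RPF call sat at the edge of the threshold: it was lost with DESeq2 (0.48, adjusted p = 0.0655), with counts summed over the isoforms of the gene (0.53, adjusted p = 0.0698), and without WT replicate 1, WT replicate 3, KO replicate 2 or KO replicate 3 (0.40 to 0.45, adjusted p = 0.0684 to 0.184). In all, 1 of 9 members tested was called, against 7.76% of transcripts in either direction and 4.75% higher (3573 higher and 2265 lower; by DESeq2 2569 and 964). A share of that size over 9 genes is near the background.

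The immediate early genes other than Dusp1 did not pass in kidney RPFs. Junb, at 4.68, 5.78 and 4.41 CPM in WT and 5.93, 6.20 and 5.74 in KO, had a change of 0.27 ± 0.14 (adjusted p = 0.236), with WT replicate 2 just above the lowest KO library. Egr2, on 18, 6 and 5 reads in WT and 8, 50 and 19 in KO, had 0.70 ± 0.40, and Arc, on 28, 9 and 9 against 15, 53 and 25, had 0.36 ± 0.35. Egr1, Fosb, Ier2, Npas4 and Nr4a1 had estimates from -0.31 (Nr4a1) to -0.08 (Fosb). Fos had 17, 6 and 5 reads in WT and 2, 16 and 12 in KO and fell under the filter, so that its RNA estimate has no counterpart in a tested RPF value. The members' median was -0.08 and that of all genes -0.02. Endothelial markers (Cldn5, Pecam1 and Flt1) summed to 34.8 to 57.0 CPM in WT and 59.8 to 71.8 in KO kidney RPFs, leukocyte markers to 3.31 to 6.83 and 7.90 to 9.28, and proximal tubule markers to 3258 to 3881 and 4567 to 5169. The KO range lay above the WT range in each list, and their part in the Dusp1 value was not tested.

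No member was called for TE in either tissue, for disomes relative to RPFs, or for a KO effect that differed between the tissues. Kidney TE of Fos had the lowest p, with a log2 change of -2.21 ± 0.80 (unadjusted p = 0.0168, adjusted p = 0.182), on 34 RNA reads in WT and 100 in KO against 28 and 30 RPFs. It was the 1 member of 10 with an unadjusted p under 0.05 for kidney TE, against 18.9% of transcripts, and edgeR called 0.0% of transcripts. Brain TE, which uses the same Ribo-seq libraries as the brain RPFs, was estimated below 0 for all 10 genes, from -0.51 (Npas4) to -0.05 (Fosb), with a lowest adjusted p of 0.895. The median was -0.19 over the members and -0.09 over all genes, of which 38.6% were positive. With counts summed per gene 8 of 10 were below 0, without Ribo-seq WT replicate 1 5 of 10, and without Ribo-seq KO replicate 3 6 of 10. None of the 10 had an unadjusted p under 0.05 for brain TE, against 4.73% of transcripts, and edgeR called 0.0% of transcripts. DESeq2 called 0 members for TE in either tissue, against 6.0% of transcripts in kidney and 18 of 98814 in brain.

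Disome reads were few. Dusp1 had 29, 59 and 22 in WT and 40, 49 and 15 in KO, Junb 20, 8 and 8 against 5, 9 and 5, and Egr1 3, 4 and 2 against 10, 2 and 6. Relative to RPFs, Egr1 had a log2 change of 1.59 ± 0.74 (unadjusted p = 0.0416, adjusted p = 0.848), Junb -0.68 ± 0.46 and Dusp1 -0.07 ± 0.31. The estimates of Nr4a1 and Ier2 were 0.83 ± 0.84 and 0.61 ± 0.73. Fos had 7, 1 and 3 disome reads in KO and 0 in each WT library and was not tested. Of the 5 members tested 0 were called by edgeR or DESeq2, and 1 of 5 (Egr1) had an unadjusted p under 0.05 against 5.84% of transcripts. Over all transcripts, edgeR called 0.0% and DESeq2 10 of 67051. At this depth a difference within those SEs was not detectable.

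For the difference of the KO effect between brain and kidney, Fos RNA had the lowest p, with the brain effect lower by 1.45 ± 0.61 on the log2 scale (unadjusted p = 0.0333, adjusted p = 0.585). It was the 1 member of 10 under 0.05 unadjusted, against 8.47% of transcripts, and 0.00108% were called. For RPFs, Junb had the lowest p, with the brain effect lower by 0.81 ± 0.30 (unadjusted p = 0.0147, adjusted p = 0.512), and Dusp1 had a difference of -0.61 ± 0.29 (adjusted p = 0.661). Junb was the 1 member of 10 under 0.05 unadjusted, against 7.63% of transcripts, and 0.0767% were called. DESeq2 called 0 members in either, against 105 of 85636 transcripts for RNA and 226 of 54269 for RPFs.

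Immediate early genes varied more between brain libraries of the same genotype than most genes did. The SD of log2(CPM + 0.5) within genotypes had a median of 0.293 over the members in brain RNA, against 0.153 over 15736 genes, and 9 of 10 members were above the median gene and 6 among the 10% of genes with the largest SD. In brain RPFs the medians were 0.409 and 0.169, with 9 members above the median gene and 7 among that 10%. Leaving out each library in turn, a setting chosen after the data were seen, gave member medians of 0.230 to 0.366 in brain RNA and 0.293 to 0.473 in brain RPFs. Npas4 RPFs had the largest value among the members, 0.670, which 1.49% of genes exceeded, and Fos RNA had 0.352, which 3.89% exceeded. Fosb, the AP-1 subunit related to Fos, was the exception: its RNA stood at 6.50, 6.91 and 6.67 CPM in WT and 6.63, 6.38 and 6.32 in KO. That is an SD of 0.0373, and 99.2% of genes had a larger one. In RPFs the SD of Fosb was 0.150, which 58.9% of genes exceeded.

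The members moved together across the brain libraries. In RNA, WT replicate 1 was the highest WT library for 8 of 10 members (38.4% of all genes), KO replicate 1 the highest KO library for 9 of 10 (19.2% of all genes), and KO replicate 3 the lowest for 10 of 10 (17.2% of all genes). In RPFs the same libraries were the highest for 9 and 9 members (30.9% and 42.9% of all genes), and KO replicate 3 was the lowest for 10 (32.7%). The mean deviation of the members from their genotype was 0.25 in WT replicate 1, 0.22 in KO replicate 1 and -0.27 in KO replicate 3 in RNA, and 0.35, 0.34 and -0.40 in RPFs. The median gene deviated by 0.05, -0.10 and 0.05 in those RNA libraries. KO replicate 1 was the lowest KO library for 65.4% of all genes in brain RNA and 36.9% in brain RPFs. The part of this wider shift in the members' pattern was not tested. The correlation of a member's deviation with the mean of the other members over the 6 brain RNA libraries, given as a description, was 0.99 for Dusp1, 0.97 for Junb and Npas4, 0.96 for Egr2, 0.95 for Fos, 0.93 for Nr4a1 and 0.87 for Ier2. It was lower for Arc, at 0.67, and Egr1, at 0.37, and it was -0.05 for Fosb. Genes measured in the same library share its scaling, so the 10 values are not independent. The endothelial markers were also highest in replicate 1 of each genotype, summing in RNA to 29.2, 17.6 and 20.8 CPM in WT and 17.5, 10.9 and 12.9 in KO, and in RPFs to 39.2, 21.7 and 38.5 and to 27.1, 16.7 and 18.7 CPM. Unlike the members, they were lowest in KO replicate 2, and in WT RPFs replicate 3 was close to replicate 1. The other brain marker lists are not given library by library here. Neuronal markers summed to 1342 to 1630 CPM in WT and 1576 to 1784 CPM in KO brain RNA. The part of cell composition in this pattern was not tested.

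**Figure D4:**
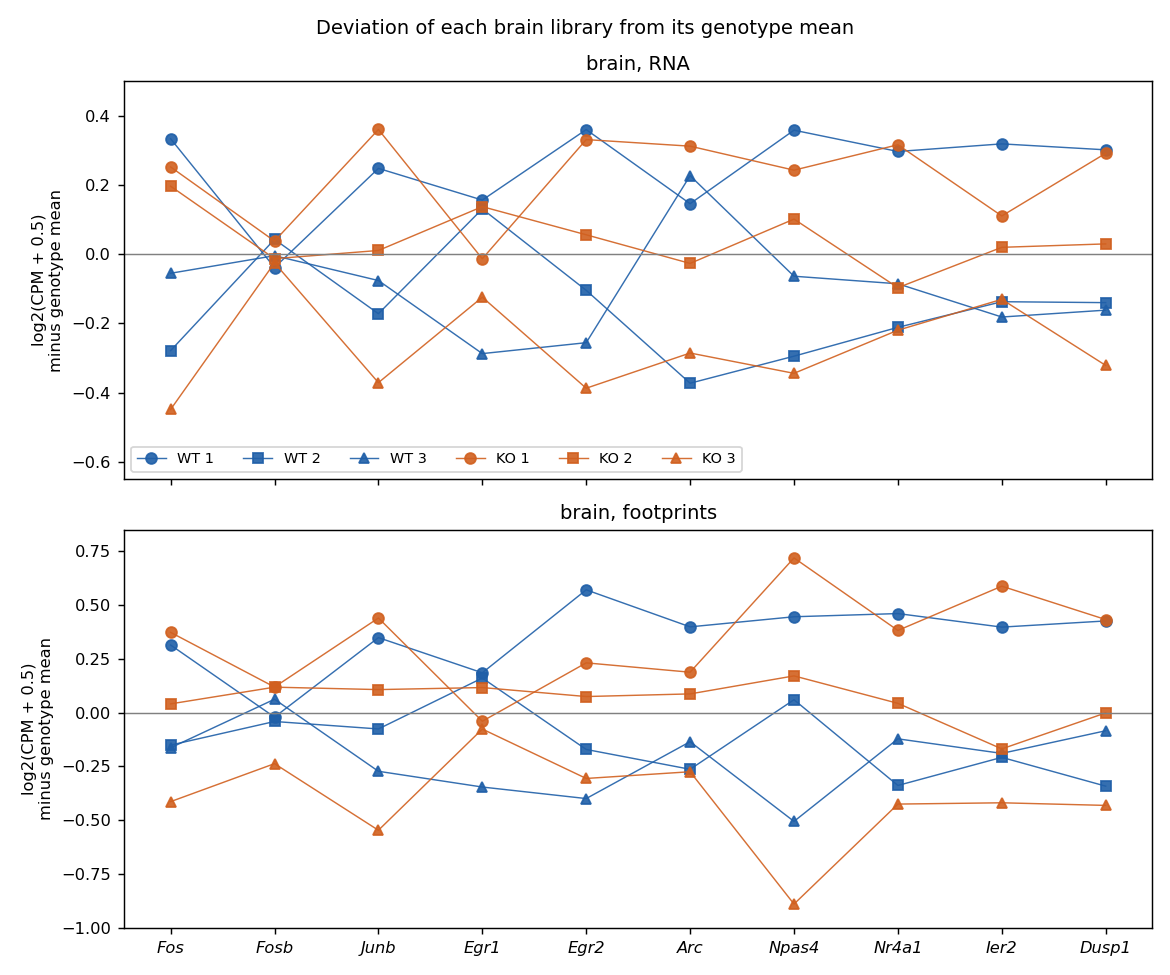
Deviation of each of the 6 brain libraries from the mean of its genotype, in log2(CPM + 0.5), for each of the 10 genes in RNA (top) and footprints (bottom). Replicate 1 of WT and of KO lies above 0 for most genes and KO replicate 3 below 0 for all of them, while Fosb RNA stays near 0 in every library.

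The kidney spread was led by other members. The median SD was 0.318 in RNA against 0.220 over all genes and 0.284 in RPFs against 0.165, with 8 members above the median gene in each and 1 and 4 among the 10% with the largest SD. These SDs are not matched for level. In kidney RNA the median gene had 0.278 and 0.303 in the lowest 2 deciles of level and 0.179 in the highest. Against edgeR's trend of dispersion by level, 2 of 7 members lay above it in kidney RNA and 6 of 9 in kidney RPFs. In brain 7 of 10 lay above it in RNA and 9 of 10 in RPFs. Without WT replicate 2 the RNA median was 0.235 against 0.205, with 5 of 10 members above the median gene, and the other libraries left out in turn gave 7 to 9 members in RNA and 7 to 8 in RPFs. Egr1 RNA had an SD of 0.620, which 1.60% of genes exceeded, and its KO replicate 1 held 433 reads against 145 and 141 in the other KO libraries. Nr4a1 RPFs had 0.535, which 1.14% of genes exceeded. KO replicate 1 was the highest KO library of kidney RNA for 8 of 10 members, against 27.8% of all genes. It was the lowest for 2 members and for 49.3% of all genes. In disome-seq the medians were 0.668 and 0.302, at counts near the floor. Of the members, 4 in kidney RNA or RPFs lay under the filter on low counts in at least 1 of them (Fos, Fosb, Egr2 and Npas4), and their SDs are set in part by the pseudocount of 0.5.

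**Figure D5:**
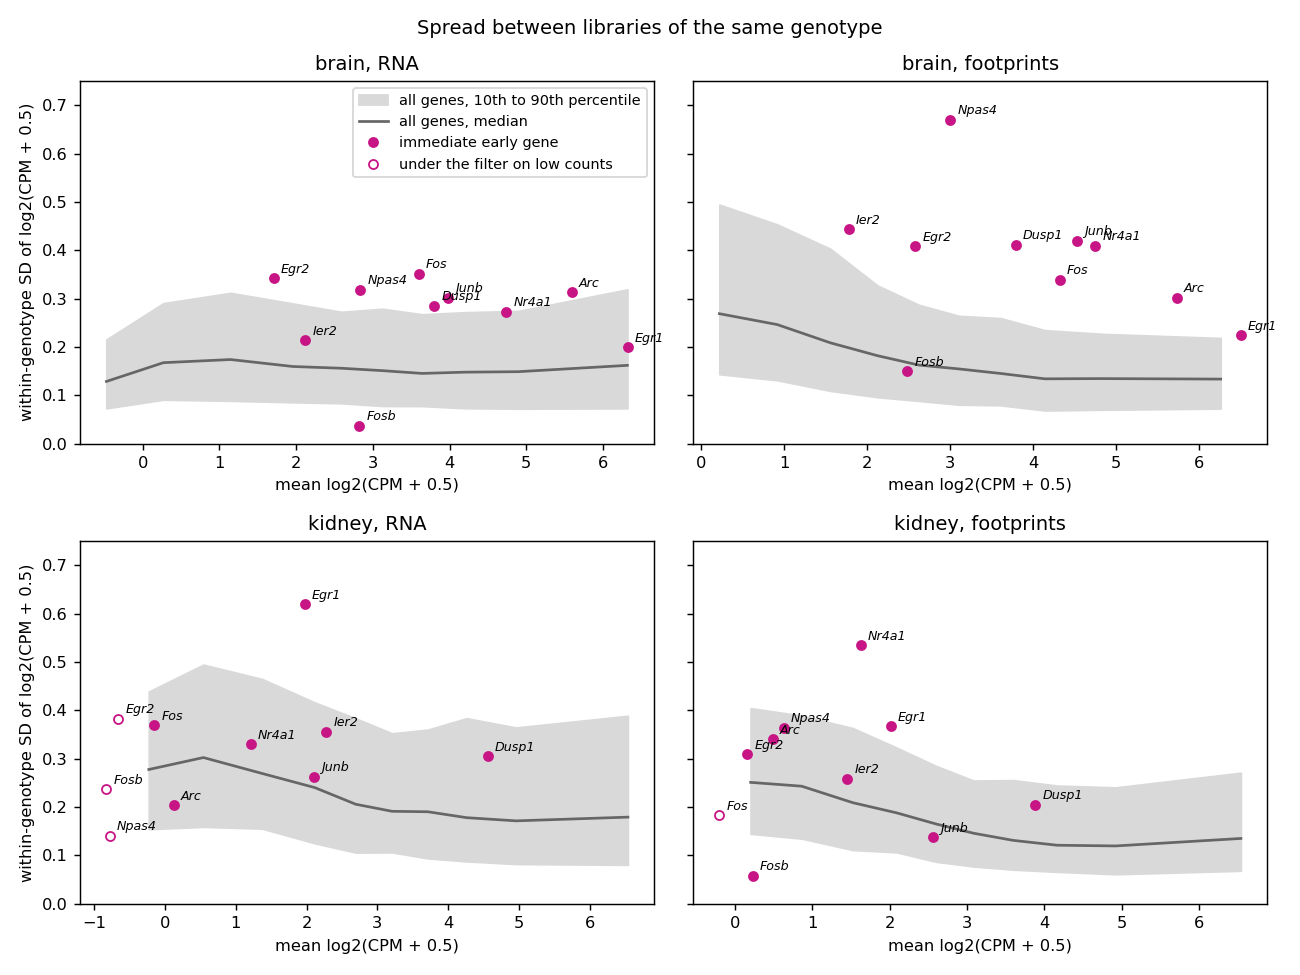
Within-genotype SD of log2(CPM + 0.5) against the mean level for each of the 10 genes, over the median and the 10th to 90th percentile of all genes (grey), in RNA and footprints of brain and kidney; open points did not pass the filter on low counts. In brain most members lie above the grey band or at its upper edge, with Npas4 footprints at 0.670 the highest and Fosb RNA at 0.0373 the lowest.

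A wider list of 42 related genes, which holds further AP-1, EGR, NR4A, DUSP and KLF members and delayed or neuronal response genes, gave few calls between genotypes. In kidney RPFs 3 of 34 tested (8.82%) passed, close to the background of 7.76%. Dusp4, another MAP kinase phosphatase, rose by 0.63 ± 0.13 on the log2 scale (adjusted p = 0.0149), while the AP-1 subunit gene Jund fell by 0.59 ± 0.11 (adjusted p = 0.0106) and the zinc finger gene Egr3 fell by 1.78 ± 0.32 (adjusted p = 0.0100). DESeq2 called Dusp4 and Jund there and gave Egr3 no adjusted p. None of the 42 was called by edgeR in brain RPFs, in RNA of either tissue, in TE, in disomes or in the difference between tissues. An unadjusted p under 0.05 was found for 8 of 38 in brain RPFs (21.1%, against 12.6% of transcripts) and for 8 of 40 in the RPF difference between tissues (20.0% against 7.63%). In kidney RPFs it was found for 9 of 34 (26.5% against 25.3%). In kidney RNA and TE the shares were 11.4% and 16.2%, below the 16.8% and 18.9% of transcripts. In the other comparisons 2 or 3 genes were under 0.05. Their shares were 4.76% in brain RNA (3.46% of transcripts), 7.14% in brain TE (4.73%) and 7.41% in disomes (5.84%). For the RNA difference between tissues the share was 4.76%, against 8.47%. DESeq2 called Jund (-0.66) and Ctgf (1.08) in kidney TE, against 6.0% of transcripts, and 0 in the others. The 15 upstream regulators, among them Srf, the Elk factors that partner it and Creb1, had no call between genotypes in any comparison by edgeR or DESeq2, and 0 to 2 of them had an unadjusted p under 0.05, at most 14.3% (kidney RPFs, against 25.3% of transcripts).

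Between WT tissues, 17 of the 42 related genes were higher in brain RNA (40.5%, against 35.8% of transcripts) and 12 lower (28.6% against 28.3%), shares near the background. The highest values were those of Vgf at 15.30, Egr4 at 12.37, Nrn1 at 11.40, Nptx2 at 8.13 and Egr3 at 7.83, and the lowest those of Zfp36 at -3.19, Ctgf at -2.40 and Gadd45g at -2.24, all as log2 differences of brain over kidney. In RPFs 20 of 39 tested were higher (51.3% against 35.8%) and 12 lower (30.8% against 35.0%). In TE 7 of 42 were called (16.7% against 19.9%). Homer1 (1.59 ± 0.33) and Bdnf (0.97 ± 0.28) were higher in brain. Egr4 (-5.19 ± 1.19), Vgf (-5.12 ± 1.12), Fosl1 (-3.51 ± 1.18), Egr3 (-3.32 ± 0.46) and Nr4a2 (-1.21 ± 0.37) were lower. The kidney RNA reads behind these values are not given here. With RNA differences as large as those of Vgf and Egr4, such a TE value can rest on very few kidney RNA reads, as for Npas4. Of the 15 regulators 11 were higher in brain RNA (73.3% against 35.8%), led by the calcium-dependent kinase gene Camk4 at 8.95 and Mef2c at 3.92, and 1 was lower, the SRF partner gene Elk3 at -1.61. In RPFs 11 were higher (73.3% against 35.8%) and 3 lower (20.0% against 35.0%). In TE 3 of 15 were called (20.0% against 19.9%), with Mef2c higher at 0.83 and Elk4 at -2.25 and Rps6ka3 at -0.68 lower.

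Over the 6 brain RNA libraries, 71 of 12819 genes with a mean of at least 1 CPM followed the members' mean deviation with a correlation over 0.9, and the closest were Zfp873 (0.99), Prima1 (0.99), Tmx3 (0.99), Cdc40 (0.98), Kcnj16 (0.98), Klhl7 (0.98), Glrb (0.97), Fnip1 (0.97), Gstcd (0.97) and Cdon (0.97). Their own SDs, from 0.0581 (Prima1) to 0.199 (Zfp873), lay below the members' median of 0.293 and above the 0.0373 of Fosb. Of 40 related genes among the candidates, 3 exceeded 0.9: the matricellular gene Ccn1 (also Cyr61) at 0.95, the kinase gene Sik1 at 0.95 and Btg2 at 0.92. In 21 of the 40 the correlation was below 0, as in 66.2% of all candidates, and the lowest were Nptx2 at -0.88, Pim1 at -0.80, Bdnf at -0.78 and Dusp5 at -0.68. These correlations share their 6 libraries and are given as a description.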

How the data were processed

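The data were RNA-seq, Ribo-seq and disome-seq counts from WT and Rpl41-/- mouse brain and kidney. Read counts per transcript were deposited by the authors without normalization. Per the labels and methods, reads were trimmed with cutadapt, aligned with STAR and counted with featureCounts of the Subread package, and multimapping reads were allowed. Versions and the strand setting are not given in the sources used here. A read can enter several transcripts, so totals can exceed the reads and isoforms share counts. Library totals are given with the results. The 2 coding transcripts of Arc had identical counts, a noncoding Junb transcript overlaps Prdx2, and a long Dusp1 isoform overlaps Ergic1. A table of 28 value columns whose names match mouse titles, listed with 44 HEK293T samples, was not used here.

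Transcripts were matched to GENCODE M21 on GRCm38 (141374 of 142604). All 10 members are named, as are the 10 genes most correlated with them, and values of related genes and regulators are given only past the threshold, for the leading ones. 1 regulator is not reported by name here. The members and lists were chosen with earlier results of these data known. KO was tested against WT within each tissue and assay with edgeR 4.0.16 (R 4.3.3, limma 3.58.1) by its quasi-likelihood test. Transcripts were filtered with filterByExpr and scaled by TMM, and p-values were adjusted by Benjamini-Hochberg over every transcript in the fit, with a threshold of 0.05. An SE is the absolute log2 change divided by the root of the F statistic, and 95% intervals use it with the degrees of freedom of the fit. TE and disome changes are assay by genotype terms, since RiboDiff, which the study used for TE, was not run here. Tissue differences used tissue, tissue by assay and tissue by genotype terms. CPM used TMM library sizes within a tissue and assay, and spread was the within-genotype SD of log2(CPM + 0.5), with 1 transcript per gene. The fitting script was tested on simulated counts.

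Same-numbered WT and KO libraries did not deviate together (correlations from -0.42 to 0.45, with at most 1 of 3 over 0.1 in an assay). Same-numbered RNA-seq and Ribo-seq libraries did in WT brain (0.22 to 0.41), WT kidney (0.17 to 0.26) and KO kidney (0.11 to 0.15), and not in KO brain (-0.02 to 0.10). Disome-seq with Ribo-seq gave 0.20 to 0.33 in WT and 0.09 to 0.21 in KO. Brain with kidney gave 0.06 to 0.31 (WT) and 0.15 to 0.32 (KO) in RNA, and -0.05 to 0.19 and 0.06 to 0.17 in RPFs. The main fits treated all these libraries as independent. With the assay pairs as a block, disome calls over all transcripts went from 0 to 207. Alternatives were DESeq2 1.42.0 with its size factors, no filter beyond 1 count, counts summed per gene, replicate blocks, a pseudocount of 2 for the spread, and leaving out each library.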

Additional observations from a re-analysis of the deposited data

How the results depend on the processing

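Of 1456 values of members recomputed under the alternatives, 122 changed sign without a call, 6 lost a call and 5 gained one. The lost calls were all Dusp1 in kidney RPFs: the count of members called there went from 1 to 0 with DESeq2 and with counts summed per gene, and ranged from 0 to 1 when each library was left out. The gained calls were all Dusp1 TE between WT tissues, with DESeq2 (1.05), with the assay pairs as a block (0.77), and without brain Ribo-seq WT replicate 2 (1.22) or 3 (1.11) or kidney RNA-seq WT replicate 3 (0.90). With the replicate block of same-numbered WT and KO libraries, which did not pair, Dusp1 in kidney RPFs was 0.46 and still called, and no block changed another member's call. With no filter beyond 1 count, the disome comparison had 1 member called (Fos, 11 reads in KO and 0 in WT) in place of 0. A pseudocount of 2 lowered the median spread of the members from 0.318 to 0.175 in kidney RNA and from 0.668 to 0.380 in disome-seq, where leaving out each library gave 0.422 to 0.826, lowest without KO replicate 2. The cause of these changes was not tested. Over all transcripts, the calls between genotypes depended on the setting: 7 in kidney RNA (1 to 12466, highest without KO replicate 1; by DESeq2 343 higher and 197 lower), 12 in brain RNA (5 to 23), 5838 in kidney RPFs (285 to 9936), 28 in brain RPFs (0 to 1573), 0 in kidney TE (0 to 16331, highest without KO RNA-seq replicate 1; by DESeq2 4129), 0 in brain TE (0 to 18) and 0 in disomes (0 to 207). For the tissue by genotype term they were 1 in RNA (0 to 6444; by DESeq2 74 higher and 31 lower) and 68 in RPFs (12 to 437; 42 higher and 26 lower, by DESeq2 96 and 130). In kidney and in disome-seq, counts near the floor limited what could be tested.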
